A study of Homo sapiens with 5 samples.

Results

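DPPA4 and DPPA2 were followed in human cells of brain organoids before and after transplantation into the mouse brain. The 2 genes, of 36601 genes listed for the grafts, were selected on their UMI counts in these same libraries, which were low at D0 and at 2 months post transplantation (MPT) and higher at 4MPT. The levels by stage are therefore a description with no test. A unique molecular identifier (UMI) is a tag that lets all copies of 1 captured RNA molecule be counted once. Levels are given as UMIs per 1000000 human UMIs (CPM) summed over all human cells of a library, with an exact 95% Poisson interval that covers counting error only.

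Organoids were made from H9, an established human embryonic stem cell line, in a derivative that carries ChR2 (a light-gated ion channel) and EYFP at the AAVS site. The labels give the genotype as WT. D0 held organoids at day 42 in vitro, the age at which they were grafted, without treatment or host. HIP_2MPT and PFC_2MPT held grafts recovered 2 months after placement in the hippocampus (HIP) or prefrontal cortex (PFC) of immunodeficient SCID-Beige mice (named SCID in the methods) aged 6 to 8 weeks at grafting, and HIP_4MPT and PFC_4MPT held grafts recovered after 4 months. All grafts stemmed from 1 cell line, and animals were pooled into 1 library per condition, so the HIP and PFC libraries served as the replicates of a stage. The labels name no collection or sequencing batch. Time after grafting therefore cannot be told apart from a batch that both libraries of a stage might share. D0 was dissociated with another enzyme and counted with an earlier Cell Ranger release and annotation than the grafts, which cannot be told apart from the absence of a host.

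After filtering, 4885 to 8363 human cells remained per library, with 11192237 to 55892222 UMIs in all and a median of 1253 (HIP_2MPT) to 9847 (D0) UMIs per cell. The median mitochondrial share was 7.31% in PFC_4MPT and 2.35% to 3.77% in the other libraries, and its part in the results was not tested. Pairs of libraries shared 6 to 20 cell barcodes, at most 0.289% of the smaller library. No barcode carried DPPA4 in both libraries of a pair, which tells little with so few shared barcodes.

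DPPA4 and DPPA2 (developmental pluripotency associated) are paired nuclear proteins of pluripotent stem cells, the early embryo and germ cells. They bind chromatin together and help to keep the promoters of developmental genes with opposing Polycomb and KMT2 marks free of DNA methylation. In mouse embryonic stem cells they act upstream of the Dux gene and so of genes switched on at zygotic genome activation. Both are normally silenced as pluripotent cells differentiate, and brain tissue is not where they are known to act.

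Both genes lie on the minus strand of chromosome 3 (GRCh38, GENCODE v44). DPPA4 (ENSG00000121570) spans positions 109326144 to 109337546, and its canonical transcript has 7 exons. DPPA2 (ENSG00000163530) spans 109293788 to 109316517, with 9 exons in its canonical transcript, and 9626 bases separate the genes. No other annotated gene overlaps DPPA4, and a Metazoa_SRP RNA lies within DPPA2 on the opposite strand. The promoters are shown because CpG sites in promoters are where DNA methylation, which these proteins are linked to, can be set. The 250 bases before each annotated start (RefSeq, GRCh38.p14, minus strand, 5′ to 3′) are given with CpG dinucleotides, the sites of DNA methylation, in capitals. The DPPA4 stretch is chr3:109337547-109337796 and the DPPA2 stretch is chr3:109316518-109316767.
DPPA4: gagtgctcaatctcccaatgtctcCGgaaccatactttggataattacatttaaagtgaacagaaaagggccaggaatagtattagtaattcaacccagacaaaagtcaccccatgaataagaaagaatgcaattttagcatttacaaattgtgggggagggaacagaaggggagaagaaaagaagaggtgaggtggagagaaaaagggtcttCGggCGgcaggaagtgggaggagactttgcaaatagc
DPPA2: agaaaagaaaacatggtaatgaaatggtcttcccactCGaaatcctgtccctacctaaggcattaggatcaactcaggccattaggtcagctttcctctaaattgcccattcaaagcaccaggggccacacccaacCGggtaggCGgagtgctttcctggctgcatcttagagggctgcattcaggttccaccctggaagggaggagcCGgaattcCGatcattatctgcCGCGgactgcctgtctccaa
The DPPA4 stretch holds 3 CpG and the DPPA2 stretch 7, against a median of 11 over 35116 promoters of this length. Of all these promoters, 77.1% hold at least as many as DPPA4 and 58.9% at least as many as DPPA2. No methylation was measured in these samples.

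DPPA4 was rare at D0 and 2MPT and about an order of magnitude more frequent at 4MPT at both graft sites. D0 held 94 DPPA4 UMIs, or 1.68 CPM (1.36 to 2.06). HIP_2MPT held 22, or 1.97 CPM (1.23 to 2.98), and PFC_2MPT held 31, or 2.05 CPM (1.39 to 2.91). HIP_4MPT held 448, or 20.9 CPM (19.0 to 22.9), and PFC_4MPT held 277, or 16.4 CPM (14.6 to 18.5). The intervals of D0 and of both 2MPT libraries overlapped, both 4MPT intervals lay above them, and HIP_4MPT lay just above PFC_4MPT. Over the 2 libraries of a stage, the mean and SD were 2.01 ± 0.0583 CPM after 2 months and 18.7 ± 3.15 CPM after 4 months (n = 2). The ratio of HIP_4MPT to HIP_2MPT was 10.6 (95% counting interval 6.93 to 17.1), and that of PFC_4MPT to PFC_2MPT was 8.02 (5.52 to 12.03). In sums over cells, more cells with the RNA and more RNA per cell cannot be told apart.

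DPPA2 stayed near the limit of detection throughout. D0 held 2 UMIs, HIP_2MPT and PFC_2MPT held 1 each, HIP_4MPT held 18 and PFC_4MPT held 5. These correspond to 0.0358, 0.0893, 0.0661, 0.839 and 0.297 CPM. The HIP_4MPT interval (0.497 to 1.33 CPM) overlapped those of PFC_4MPT (0.0963 to 0.692 CPM) and, by a sliver, HIP_2MPT (0.00226 to 0.498 CPM). The ratio of HIP_4MPT to HIP_2MPT was 9.39 with a counting interval of 1.48 to 391, and that of PFC_4MPT to PFC_2MPT was 4.49 with an interval of 0.502 to 212. Each ratio rests on 1 UMI at 2MPT, and the PFC interval held 1. As the genes were selected on these levels, the ratios are a description with no test.

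**Figure D1:**
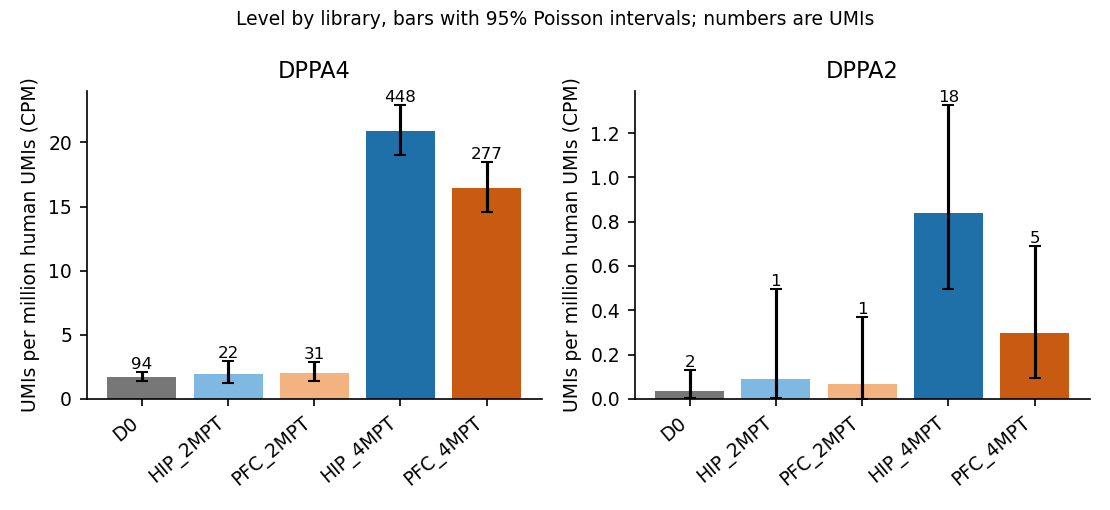
DPPA4 (left) and DPPA2 (right) in the 5 libraries, as CPM on axes that start at 0, with 95% Poisson intervals; the number over each bar is its UMI count. The 2 DPPA4 bars at 4MPT stand at 20.9 and 16.4 CPM and the others at 1.68 to 2.05 CPM, while all DPPA2 bars stay under 1 CPM.

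Libraries differed in depth per cell, so shares of cells were also taken after drawing 1000 UMIs from each cell and leaving out shallower cells. The random draw was made a single time, so the thinned shares would vary somewhat with another draw. DPPA4 was then detected in 0.174% of D0 cells, in 0.151% (HIP) and 0.192% (PFC) of cells at 2MPT, and in 1.82% (HIP) and 1.38% (PFC) of cells at 4MPT. The cells left out numbered 282, 1635, 233, 171 and 982 in the same order. Without thinning, the shares were 1.45%, 0.266%, 0.521%, 5.48% and 3.03%. The D0 share, from the deepest cells, was above the 2MPT shares without thinning and between them after it. Within bins of cells of like depth that held at least 100 cells, DPPA4 ran from 13.9 to 21.1 CPM in the 4MPT libraries and from 0 to 3.31 CPM in the 2MPT libraries.

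**Figure D2:**
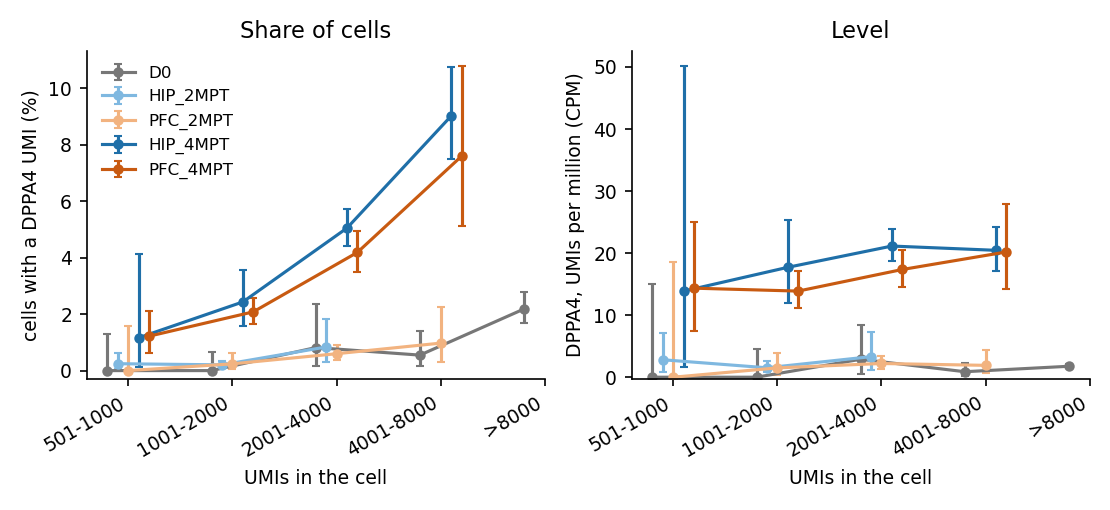
Share of cells with a DPPA4 UMI in percent (left, 95% binomial intervals) and DPPA4 level in CPM (right, 95% Poisson intervals) for cells binned by their UMI number, in bins of at least 100 cells, by library. The share climbs with depth in the 4MPT libraries, to 9.01% and 7.59% of cells with more than 4000 and up to 8000 UMIs. Their level runs from 13.9 to 21.1 CPM, in each library lowest in a bin of up to 2000 UMIs and highest in a deeper one.

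Cells were classed by marker genes after clustering without DPPA4 and DPPA2. Of 22 clusters, 10 were neuron-like (STMN2, DCX, NEUROD6, GAD1 and other markers), 3 intermediate-progenitor-like (EOMES, PENK, NEUROG1), 4 progenitor-like (SOX2, VIM, MKI67, TOP2A) and 2 astrocyte-like (GFAP, AQP4, GJA1). A cluster with raised OLIG1, OLIG2, PDGFRA and MBP had mean scores for oligodendrocyte lineage and astrocyte markers within 0.2 of each other and is called OLIG1/EGFR glial by its genes. The remaining clusters were oligodendrocyte-lineage-like (167 cells) and choroid-plexus-like (375 cells, nearly all at D0). Neuron-like cells came from different clusters by library: of the 5844 in PFC_4MPT, 1080 were in cluster 10 and 907 in cluster 11, both with inhibitory neuron markers, while 2182 of the 6083 in HIP_2MPT were in cluster 0, and cluster 11 had 0.456 of the median depth of its libraries.

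DPPA4 UMIs at 4MPT were spread over every class with more than 100 cells in its library. In HIP_4MPT the level was 30.9 CPM in OLIG1/EGFR glial cells (107 UMIs, interval 25.3 to 37.4), 28.0 in astrocyte-like (77 UMIs, 22.1 to 35.0), 22.7 in intermediate-progenitor-like (68 UMIs, 17.6 to 28.7), 19.0 in progenitor-like (49 UMIs, 14.0 to 25.1) and 14.9 in neuron-like cells (141 UMIs, 12.5 to 17.6). In PFC_4MPT the same classes had 22.8, 17.0, 22.6, 21.8 and 13.5 CPM, from 41, 26, 32, 41 and 135 UMIs. Neighbours in either order had overlapping intervals, and in PFC_4MPT the interval of neuron-like cells (11.3 to 16) overlapped those of astrocyte-like, intermediate-progenitor-like and progenitor-like cells, but not that of OLIG1/EGFR glial cells (16.4 to 31.0). Neuron-like cells had the lowest level of these 5 classes in both libraries. The oligodendrocyte-lineage-like cells had 6 UMIs in HIP_4MPT and 2 in PFC_4MPT, too few to place.

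At 2MPT, DPPA4 was at 1.11 and 1.45 CPM in neuron-like cells (HIP_2MPT and PFC_2MPT), 1.86 and 1.69 in intermediate-progenitor-like, 5.62 and 2.07 in progenitor-like and 10.6 and 7.88 in astrocyte-like cells. At D0 it was at 0.562 CPM in neuron-like, 2.38 in intermediate-progenitor-like, 2.10 in progenitor-like and 11.98 CPM in astrocyte-like cells, the last from 13 UMIs in 6 of 98 cells. Astrocyte-like cells thus had the highest level of these 4 classes in each of these 3 libraries, from 5 to 13 UMIs each. At 2MPT their intervals overlapped those of progenitor-like cells (3.43 to 24.7 against 1.82 to 13.1 CPM in HIP_2MPT, 3.60 to 15.0 against 0.673 to 4.84 CPM in PFC_2MPT). At D0, 1 cell held 6 of the 13 UMIs. In a clustering without integration of the libraries, astrocyte-like clusters 6, 15 and 18 held 5, 0 and 0 D0 cells. The 4MPT to 2MPT ratio was 13.5 (counting interval 6.91 to 30.1) in HIP and 9.30 (5.26 to 17.9) in PFC for neuron-like cells, against 2.65 (1.09 to 8.39) and 2.16 (0.981 to 5.24) for astrocyte-like cells. These ratios were not tested against each other. OLIG1/EGFR glial cells had no DPPA4 UMI at 2MPT, where a count of 0 allows up to 41.6 CPM in HIP and 11.7 CPM in PFC. Against that floor of 3 counts, PFC_4MPT was at least 1.95-fold higher, a bound that leaves out the counting error of its 41 UMIs. With that error, the lower 95% limit of the ratio was 1.52 in PFC and 0.595 in HIP.

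Cell classes changed in share between stages, OLIG1/EGFR glial cells from 0.556% to 13.9% of cells in HIP and from 1.495% to 8.01% in PFC. With the class levels of HIP_4MPT weighted by the UMI shares of classes in HIP_2MPT, DPPA4 came to 17.0 CPM, against 20.9 as measured. The same calculation for PFC gave 16.7 CPM, against 16.4.

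**Figure D3:**
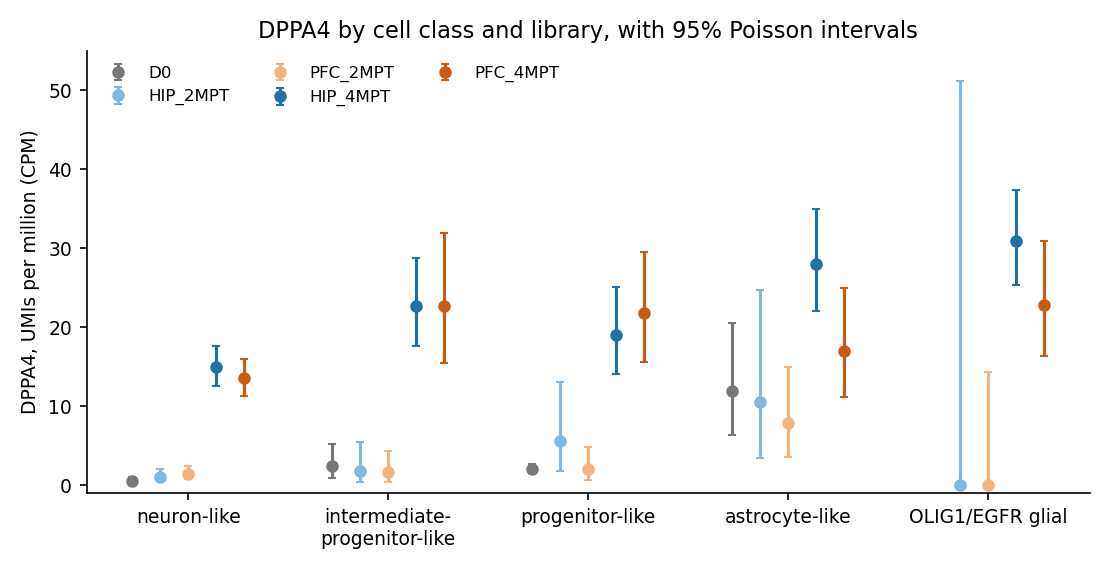
DPPA4 in CPM by cell class and library, with 95% Poisson intervals, for 5 classes and sums of at least 20 cells. In each class shown both 4MPT points lie above the 2MPT points, from 13.5 to 30.9 CPM, and neuron-like cells have the lowest 4MPT points.

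The genes were not chosen on the difference between classes or sites, and DPPA4 passed the filter on low counts, so these were tested with edgeR (quasi-likelihood F-test, p-values adjusted over all genes). DPPA2 did not pass the filter in either comparison. DPPA4 was lower in neuron-like than in astrocyte-like cells in 4 of 4 graft libraries, with a log2(Fold change) of -1.08 ± 0.39 (SE; adjusted p = 0.0452). In that comparison 44.2% of 14988 genes were called, 22.3% of the tested genes in the direction of DPPA4 and 21.8% in the other. The call was lost without HIP_2MPT (adjusted p = 0.0673), PFC_2MPT (0.106) or HIP_4MPT (0.0835), and without the library term (0.309). After thinning, DPPA4 was detected in 1.48% of neuron-like and 1.61% of astrocyte-like cells in HIP_4MPT, and in 1.28% and 1.18% in PFC_4MPT. The thinned shares at 2MPT were 0.0812% and 0.763% in HIP_2MPT, and 0.161% and 1.04% in PFC_2MPT, from 2 and 4 astrocyte-like cells with a UMI. The shares were higher in astrocyte-like cells at 2MPT, but with overlapping intervals. These were 0.0926% to 2.73% against 0.0221% to 0.208% for neuron-like cells in HIP_2MPT. In PFC_2MPT they were 0.285% to 2.65% against 0.0589% to 0.349%. With all UMIs the intervals of the 2 classes did not overlap at 2MPT. Astrocyte-like cells of HIP_2MPT were at 10.6 CPM (3.43 to 24.7, 5 UMIs) and neuron-like cells at 1.11 (0.506 to 2.10, 9 UMIs). In PFC_2MPT the classes were at 7.88 CPM (3.60 to 15.0, 9 UMIs) and 1.45 CPM (0.77 to 2.48, 13 UMIs). At 4MPT the thinned astrocyte-like shares came from 10 cells with a UMI in HIP_4MPT (interval 0.77% to 2.94%) and 6 in PFC_4MPT (0.44% to 2.56%). Such wide intervals hold the neuron-like shares and cannot show that the classes were alike. With all UMIs, astrocyte-like cells of HIP_4MPT were at 28.0 CPM (22.1 to 35.0), above neuron-like cells at 14.9 (12.55 to 17.59). In PFC_4MPT the intervals of these levels overlapped. The difference between stages was not tested.

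Between graft sites, DPPA4 did not pass the test. The log2(Fold change) of PFC against HIP, with stage in the fit, was -0.12 ± 0.42 (SE; edgeR adjusted p = 1.00), and 0.0827% of 18127 genes were called, 0.0662% as higher in PFC and 0.0165% as higher in HIP. A p that misses the threshold does not show that the sites were alike.

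DPPA4 also varied among clusters, both across classes and within 1 class. Across classes, 15 clusters had at least 100 cells in both 4MPT libraries. Over them DPPA4 ran from 9.20 CPM (neuron-like cluster 4) to 39.95 CPM (astrocyte-like cluster 19) in HIP_4MPT. In PFC_4MPT it ran from 8.01 CPM (neuron-like cluster 10) to 34.4 CPM (progenitor-like cluster 15). Of the 15 clusters, 12 also had at least 100 cells in both 2MPT libraries. There DPPA4 ran from 0 to 8.86 CPM in HIP_2MPT and from 0 to 7.90 CPM in PFC_2MPT. In 12 of these 12, each 4MPT level was above each 2MPT level, the difference on which the genes were selected. Some intervals overlapped, such as those of cluster 12 in PFC_4MPT (2.51 to 23.6 CPM, 4 UMIs) and HIP_2MPT (0.0676 to 14.9 CPM, 1 UMI). Among neuron-like clusters, cluster 1 (raised NEUROD6 and TBR1, glutamatergic neuron markers) had 18.1 CPM in HIP_4MPT and 26.3 CPM in PFC_4MPT. Cluster 10 (GAD1, GAD2 and DLX genes, inhibitory neuron markers) had 10.7 and 8.01 CPM. Cluster 1 was above cluster 10 in both libraries. Their intervals did not overlap in PFC_4MPT (18.0 to 37.2 against 4.58 to 13.0) and did in HIP_4MPT. Low levels were not limited to inhibitory markers. Clusters 2 and 4 were named by general neuron markers (STMN2, DCX). In HIP_4MPT cluster 2 stood at 9.88 CPM and cluster 4 at 9.20, and in PFC_4MPT at 11.03 and 8.45. Cluster 11, with inhibitory markers, reached 15.83 CPM in PFC_4MPT (8.65 to 26.55). Cluster 6, with glutamatergic markers, was at 19.12 (HIP_4MPT) and 17.0 CPM (PFC_4MPT). Neuron types were not tested against each other.

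**Figure D4:**
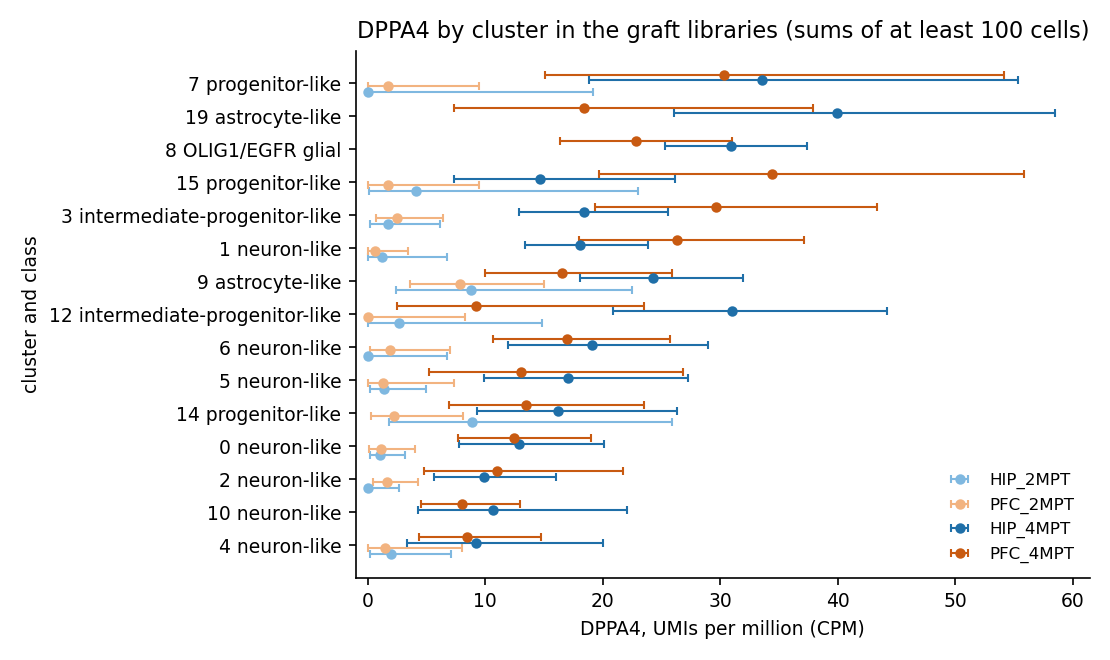
DPPA4 in CPM (horizontal axis, 95% Poisson intervals) by cluster in the 4 graft libraries, for sums of at least 100 cells, ordered by the mean of the 4MPT libraries. Each 4MPT point lies above the 2MPT points of its cluster, and the 4MPT means run from 8.83 CPM in neuron-like cluster 4 to 31.9 CPM in progenitor-like cluster 7.

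The cells that carried DPPA4 at 4MPT mostly held a single molecule. Of 379 carriers in HIP_4MPT, 317 had 1 UMI, 56 had 2, 5 had 3 and 1 had 4. Of 253 carriers in PFC_4MPT, 231 had 1 UMI, 20 had 2 and 2 had 3. No cell held more than 4 DPPA4 UMIs in HIP_4MPT or 3 in PFC_4MPT. With so few UMIs per cell, these counts cannot tell a low level in many cells from a higher level in a minority. Neuron-like cells made up 31.9% of carriers and 53.8% of cells in HIP_4MPT, and 50.6% and 69.9% in PFC_4MPT. OLIG1/EGFR glial cells made up 24.5% of carriers and 13.9% of cells in HIP_4MPT, and 15.4% and 8.01% in PFC_4MPT. Classes differed in depth, and of all human UMIs OLIG1/EGFR glial cells held 16.1% and 10.7%, and neuron-like cells 44.1% and 59.2%, in HIP_4MPT and PFC_4MPT.

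Carriers were deeper than other cells, with medians of 3426 against 2730 UMIs in HIP_4MPT and 2332 against 1830 in PFC_4MPT. The median mitochondrial share was 2.97% in carriers and 3.02% in other cells of HIP_4MPT, and 6.85% and 7.33% in PFC_4MPT. The median human share of UMIs was 97.9% against 97.4% and 94.3% against 93.2%. POU5F1 and NANOG, core factors of pluripotency, had 0 UMIs each in the carriers of both 4MPT libraries. The other cells of HIP_4MPT held 8 POU5F1 and 2 NANOG UMIs, and those of PFC_4MPT 0 and 6. A count of 0 allows up to 0.792% of carriers with a UMI in HIP_4MPT and 1.19% in PFC_4MPT. With so few UMIs among 6534 and 8110 other cells, counts of 0 cannot show that carriers differed from them.

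DPPA2 was found in 15 cells of HIP_4MPT and 4 cells of PFC_4MPT. Of the 15 cells, 4 also held DPPA4 (26.7%), where 5.48% of all cells of that library did. Seen the other way, DPPA2 was in 1.06% of DPPA4 carriers and 0.168% of other cells. Both contrasts rest on the same 4 cells. Detection rises with depth and carriers were deeper than other cells. The shares were not compared at equal depth, and joint detection was not tested. In PFC_4MPT 0 of 4 DPPA2 cells held DPPA4. The DPPA2 cells of HIP_4MPT were 6 neuron-like, 4 OLIG1/EGFR glial, 2 astrocyte-like, 2 progenitor-like and 1 intermediate-progenitor-like, and the joint cells were 2 neuron-like and 2 OLIG1/EGFR glial.

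Droplets of host cells, which should lack human DPPA4, gave a measure of free RNA. Host barcodes were those with a human share of UMIs under 0.2 in the human-mouse reference. Human DPPA4 was counted in 3 of 2071 host barcodes of HIP_4MPT (0.145%) and in 2 of 1202 of PFC_4MPT (0.166%), at medians of 112 and 241 human UMIs. The shares in human cells, 5.48% and 3.03%, were at medians of 2759 and 1840 UMIs. Per human UMI the host barcodes had 10.1 CPM (2.08 to 29.4) and 6.15 CPM (0.745 to 22.2), intervals that reach the levels of the human cells. Host barcodes of the 2MPT libraries held 0 UMIs of 149226 and 49053 human UMIs, which allows up to 20.1 and 61.2 CPM. Mouse Dppa4 and Dppa2 had 0 UMIs in every graft library. How much of the spread over classes came from free RNA was not tested.

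None of the other listed genes of the pathway passed the edgeR test between stages, which was fitted without graft site. In simulated data that test found 22 of 100 genes changed 2-fold and 81 of 100 changed 4-fold. A missed threshold therefore does not show that a gene was unchanged. For most of them, calls with graft site as a block are not given here. Lists of genes were tested for 4MPT against 2MPT with edgeR, where 2.49% of 18127 genes were called, 1.98% as higher at 4MPT and 0.513% as lower, with a median log2(Fold change) of -0.01 over all genes. The share of all genes at an unadjusted p under 0.05 is not given here, so counts at that threshold have no background to set them against. DESeq2 counts over all genes are given in the last section. With 2.49% of all genes called, lists of 2 to 18 tested genes would be expected to hold few or no calls. Among 28 genes of pluripotency, 17 had fewer than 10 UMIs over the grafts, 7 passed the filter, and 0 passed the test. At an unadjusted p under 0.05 there was 1, CD24 (a surface protein that neurons also make), at -1.24 ± 0.30 (SE; adjusted p = 0.0688), which DESeq2 called lower. The median of the 7 was -0.83. POU5F1 had 3, 2, 8 and 0 UMIs in HIP_2MPT, PFC_2MPT, HIP_4MPT and PFC_4MPT, and NANOG had 5, 5, 2 and 6. DPPA3, a maternal factor that shields methylated DNA in the early embryo, had 1 UMI in the grafts, in HIP_4MPT, and DPPA5, an RNA-binding protein of pluripotent cells, had 0.

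Of 24 genes of zygotic genome activation, the class that DPPA2 and DPPA4 regulate in mouse stem cells, 18 of the 23 with a row had fewer than 10 UMIs, and DUX4 had 0. Of them 2 passed the filter and 0 passed the test, at an unadjusted p under 0.05 and with DESeq2 also 0. Of 41 germline genes, 16 passed the filter and 0 passed the test. At an unadjusted p under 0.05 there were 0 higher and 2 lower, TEX101 (-1.59 ± 0.59) and SOHLH2 (-1.48 ± 0.63), and DESeq2 called 0. The germline median was 0.14, with SYCP3 (a protein of the meiotic chromosome axis) at 1.13 ± 0.55 (adjusted p = 0.391).

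DNA methylation and chromatin genes were well detected. Of 18 genes of DNA methylation, all 18 passed the filter and 0 passed the test, with 0 higher and 2 lower at an unadjusted p under 0.05 (TDG and GADD45G) and 1 lower with DESeq2. DNMT1, the maintenance methyltransferase, was at -0.40 ± 0.22, and DNMT3A and DNMT3B, which set new methylation, were at -0.19 ± 0.23 and 0.53 ± 0.35. TET1, which oxidises methylated cytosine, was at 0.20 ± 0.21. Neither the 16 genes that repress germline genes, such as SETDB1, PCGF6 and E2F6 (median -0.09), nor the 18 Polycomb and KMT2 genes, such as EZH2 and KMT2A (median -0.07), held any gene past the test. There were 0 at an unadjusted p under 0.05 and 0 with DESeq2 in both lists.

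**Figure D5:**
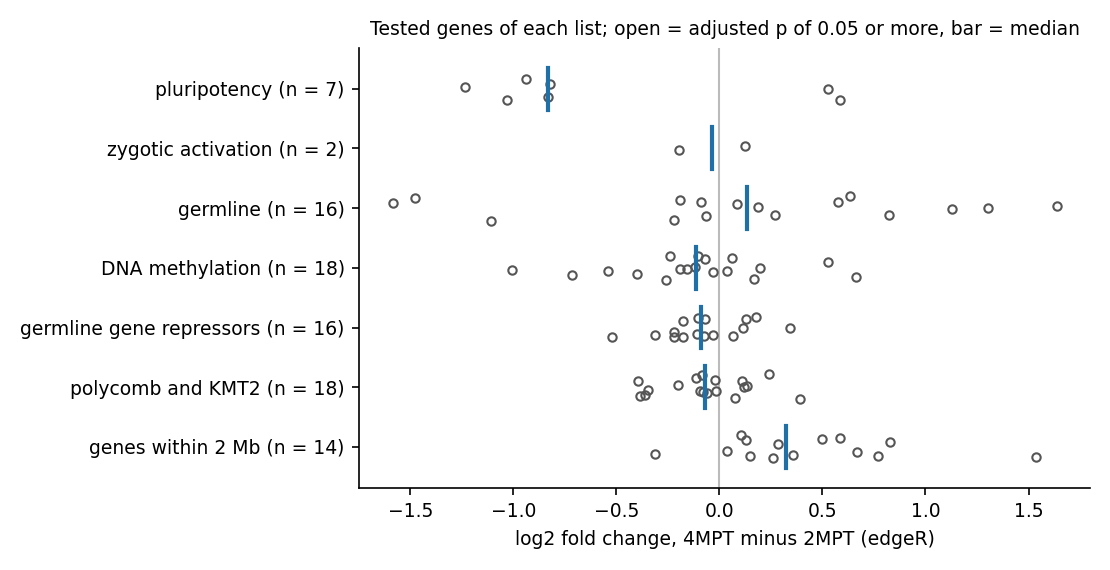
log2(Fold change) of 4MPT against 2MPT (edgeR) for the genes of each list that passed the filter on low counts, without DPPA4 and DPPA2; open points did not pass the test at an adjusted p of 0.05 and bars are medians. No point passes the test, and the medians run from -0.83 (pluripotency) to 0.32 (genes within 2 Mb of DPPA4).

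In the PFC against HIP comparison 0 genes of these lists passed the test with edgeR or DESeq2, with 1 gene, TEX14, at an unadjusted p under 0.05. Between neuron-like and astrocyte-like cells 44.2% of all genes were called, and the lists had 4 of 7 pluripotency, 4 of 6 germline, 8 of 18 DNA methylation, 4 of 16 germline repressor and 8 of 18 Polycomb and KMT2 genes called. For the DNA methylation list and the Polycomb and KMT2 list this was 44.4% each, near the share of all genes. The germline genes higher in astrocyte-like cells, the direction of DPPA4, were MAEL (-3.23 ± 0.58), SYCP3 (-2.63 ± 0.34) and TEX14 (-2.28 ± 0.31). The other germline gene called, TDRD9 (1.42 ± 0.51), was higher in neuron-like cells, against the direction of DPPA4. The DNA methylation genes that differed most were GADD45G (3.11 ± 0.28), higher in neuron-like cells, and GADD45B (-2.66 ± 0.22), both adaptors for active demethylation. All 8 Polycomb and KMT2 genes called were higher in neuron-like cells, among them BMI1 (1.49 ± 0.21) and KMT2A (0.90 ± 0.15). All 4 pluripotency genes called were higher in neuron-like cells, against the direction of DPPA4: CD24, TRIM71, DNMT3B and PODXL.

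Genes around DPPA4 were tested between stages as well. Of 53 other genes annotated within 2 Mb, 30 had a row in the counts, 13 of these had fewer than 10 UMIs over the grafts, and 14 passed the filter. In the fit of all 4 graft libraries, none of the 14 passed the edgeR test of 4MPT against 2MPT, with 2 higher and 0 lower at an unadjusted p under 0.05 and 0 with DESeq2. Those 2 were NECTIN3, an adhesion molecule (0.83 ± 0.27, adjusted p = 0.176), at 1733 kb, and the long noncoding RNA ENSG00000272597 (1.54 ± 0.59, adjusted p = 0.260), at 1996 kb. Without PFC_2MPT, which leaves 1 library at 2MPT, CD47 went from 0.50 to 1.01 and the long noncoding RNA CCDC54-AS1 from 0.77 to 1.35. The median of the 14 was 0.32, with 13 above 0, and 8 of the 14 changed sign when 1 library was left out. A missed threshold does not show that these genes were unchanged. MORC1, a germline gene at 208 kb, had 1, 0, 2 and 3 UMIs in HIP_2MPT, PFC_2MPT, HIP_4MPT and PFC_4MPT. LINC00488, at 109 kb, had 2.23, 1.39, 2.38 and 2.79 CPM (0.58 ± 0.46, adjusted p = 0.650). The long noncoding RNA ENSG00000289358, which starts 194 bases from DPPA4 on the other strand, has no row in the counts and was not analysed here.

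The genes whose pattern was most like that of DPPA4 were taken by Pearson's r of log2(CPM + 1) over 23 sums of 1 class in 1 library with at least 100 cells, among 12186 genes with a mean of at least 5 CPM. The sums share libraries, depth and stage, so the r values describe a pattern and carry no test. The 10 genes were LINC00844 (r = 0.87), MRPS30-DT (0.86), AC116049.2 (0.86), ANKRD35 (0.84), EGFR (0.84), TOMM7 (0.84), METTL7A (0.83), PMP2 (0.82), AC125613.1 (0.81) and ENTPD3-AS1 (0.81). EGFR, a growth factor receptor, went from 7.06 and 18.7 CPM at 2MPT to 171 and 87.2 CPM at 4MPT (HIP and PFC). PMP2, a fatty acid binding protein of glia, went from 5.27 and 23.9 to 219 and 87.0 CPM. These are levels of whole libraries, in which OLIG1/EGFR glial cells rose from 0.556% to 13.9% (HIP) and from 1.495% to 8.01% (PFC) of cells. Levels of these genes by class are not given here, and the part of class shares in the rises was not tested. TOMM7, a subunit of the mitochondrial import pore, was abundant throughout, at 439 to 606 CPM in the grafts and 448 at D0. With a pseudocount of 10 in place of 1, 7 of these 10 genes were still among the first 10.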

How the data were processed

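RNA of single cells was captured in droplets with a 3′ kit, for 5 samples. The authors made the deposited counts (UMI counts per gene and barcode, not normalized) with Cell Ranger, 3.1.0 for D0 and 5.0.0 for the grafts per the file headers; the submitters' processing notes name version 3.1. Grafts were also counted against a human-mouse reference, whose mouse genes carry an mm10 prefix. Whether intronic reads were counted is not given in the sources used here.

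Human cells had a human share over 0.8 (grafts), over 500 UMIs and 500 genes, a mitochondrial share under 0.15 and a log10 gene number over 0.80 of the log10 UMI number. No doublet caller was run. Cells were clustered in R 4.3.3 with sctransform 0.4.2 and Seurat 5.3.0 (2500 variable genes without DPPA4 and DPPA2, RPCA integration, 40 principal components, resolution 0.8) and named from marker lists; the margin of 0.2 in mean z under which a cluster was left unnamed was set after its values were seen. UMIs summed per library, or per library and class, were tested with edgeR 4.0.16 (filterByExpr, TMM, quasi-likelihood test, Benjamini-Hochberg threshold 0.05), with DESeq2 1.42.0 as an alternative; 4MPT was tested against 2MPT with no covariate, PFC against HIP with stage, and the classes with library. Intervals are exact 95% (Python 3.11.15, scipy 1.17.1). What a count of 0 allows is given as a floor of 3 counts, which lies below the upper limit of these intervals. The number of animals per library is not given, so p-values measure only the spread between these libraries. Alternatives were other cell filters, the dual reference, other clusterings, no filter on low counts, other model terms, and each library left out.

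Tested on simulated data with 100 genes changed 2-fold and 100 changed 4-fold, edgeR found 22 and 81 among 18127 genes for 4MPT against 2MPT (8 false calls), 10 and 71 for PFC against HIP (3 false calls), and, among 14988 genes, 42 and 96 for the classes (10 false calls).

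The members and lists were chosen with earlier results of these data known. Genes named were DPPA4 and DPPA2; list genes that passed a test, at most 5 per list and comparison by size of change; POU5F1, NANOG, DPPA3, DPPA5, MORC1, DNMT1, DNMT3A, DNMT3B and TET1; genes within 2 Mb of DPPA4; and the 10 genes most like DPPA4. Other genes were named after their values were seen. GENCODE v44 and RefSeq gave positions and promoters.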

Additional observations from a re-analysis of the deposited data

Results flagged for a closer look

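Barcodes with a human share of UMIs between 0.2 and 0.8 were left out of all comparisons. In them, human DPPA4 was counted at 4MPT above the 3 counts that a count of 0 allows: 17 UMIs in HIP_4MPT (19.3 CPM of the human UMIs, 628 barcodes) and 18 UMIs in PFC_4MPT (11.8 CPM, 2278 barcodes). Mixed barcodes of HIP_2MPT and PFC_2MPT held 0 DPPA4 UMIs, which allows up to 7.95 and 21.4 CPM. The cause was not tested.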

How the results depend on the processing

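Of 104 levels and shares recomputed under the alternatives, 5 moved beyond their counting interval. DPPA2 in HIP_2MPT, a single UMI, fell to 0 CPM with a human share over 0.9, with more than 1000 UMIs per cell and in the human genes of the dual reference. Shares of cells with DPPA4 at 1000 UMIs rose without thinning, from 1.82% to 5.48% in HIP_4MPT and from 1.38% to 3.03% in PFC_4MPT.

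For 4MPT against 2MPT, 359 genes were higher and 93 lower. These became 1031 and 400 without the filter on low counts, 560 and 173 with the graft site as a block, and 487 and 202 with DESeq2, and ran from 76 to 1009 and from 3 to 539 with 1 library left out (1009 and 539 without PFC_2MPT, 100 and 7 without HIP_4MPT, 76 and 3 without PFC_4MPT). For PFC against HIP, 12 genes were higher and 3 lower, against 5 and 2 with DESeq2, 25 and 11 without the filter, and 0 and 0 without stage; with 1 library left out no test could be had, and the DPPA4 value ran from -0.25 to 0.08. The neuron-like against astrocyte-like value of DPPA4 ran from -1.65 to -0.81 with 1 library left out and was -1.04, past no threshold, without the library term. Of 386 recomputed values of single named genes, 26 lost a call, 4 of them DPPA4, and 2 gained one, the DPPA4 neighbours CD47 and CCDC54-AS1. The sign changed in 23, none of them called under either setting: 15 with a test and 8 without one, 2 of these DPPA4 between sites. With 1 library left out, the values for 4MPT against 2MPT ran from -0.12 to 0.34 for BBX, -0.17 to 1.18 for CD96, -0.32 to 0.74 for CIP2A, -0.22 to 0.62 for DUBR, -0.12 to 0.50 for IFT57, -0.75 to 0.24 for LINC00636, -0.16 to 0.26 for LINC01990 and -0.09 to 0.77 for NECTIN3-AS1. DNMT1 in PFC against HIP went from -0.017 to 0.011 without the filter and 0.010 without stage, and in neuron-like against astrocyte-like cells from -0.082 to 0.050 without the filter and from -0.239 to 0.075 with 1 library left out. The cause of these changes was not tested. The labels give no link between animals of different libraries, so no paired analysis could be made. The graft site as a block only compares the stages within a site. Depth limits DPPA2, whose levels rest on 1 to 18 UMIs.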
